A study of Mus musculus with 3 samples.

Results

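Border-associated macrophages are the resident macrophages of the brain's edges: the perivascular spaces, the meninges and the choroid plexus. They were chosen here by RNA alone. A cell barcode with at least 500 unique molecular identifiers (UMIs, one per captured RNA molecule) and at most 20% mitochondrial UMIs was a member if it held a UMI of 4 or more of the 7 markers Mrc1, Pf4, F13a1, Cbr2, Ms4a7, Cd163 and Lyve1. Members also had at most 1 of 4 microglia genes (Tmem119, Siglech, Gpr34, Sall1) at 2 or more UMIs, and none of Cldn5, Kcnj8, Myh11, Aqp4, Ccdc153, Mog and Dcn, which mark other brain lineages, at that level. The rule found 497 members among 36467 barcodes: 232 of 12645 in PF, 156 of 12305 in HS and 109 of 11517 in QS.

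These macrophages take up particles and proteins from the fluid around vessels, through receptors such as the mannose receptor Mrc1 and the hyaluronan receptor Lyve1, and part of them carry MHC class II molecules, which show peptides to T cells. They are known to recycle iron, to secrete chemokines and to clear debris, and they differ from the microglia of the brain tissue itself by Mrc1, Pf4 and F13a1. The hypothalamus has a dense vasculature and borders the median eminence, where vessels are open to blood-borne signals.

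The cells came from dissected hypothalami of male mice, 8 weeks old, which were digested with collagenase II, dissociated mechanically and loaded for 10x Genomics 3′ capture with version 3 chemistry. PF mice were the control with matched food intake, HS mice were exposed to heat, and QS mice were in recovery after exposure. Each group was 1 library. The sources used here do not give the genotype, how many mice were pooled per library, how long exposure and recovery lasted or the hour of collection. The RT condition was not analysed here. Because a single library stands for each group, higher and lower describe these libraries and not the conditions, and no test or p-value is given. Intervals are 95% and cover counting error only. The PF library serves as the control of both HS and QS, so those comparisons are not independent, and QS against HS uses the same libraries again.

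Summed over the members, PF held 1906221 UMIs, HS 1294151 and QS 828413, so QS gives the least precise values. Median depth per member was 7773, 8082 and 7528 UMIs, with 2639, 2603 and 2440 genes and 2.85%, 2.65% and 2.29% mitochondrial UMIs. No member barcode was a member in more than 1 library, although 37 to 51 barcodes of each pair of libraries were identical by sequence. Scrublet called 2, 3 and 0 members doublets, and they were kept. Just inside the threshold, 50, 28 and 23 members had exactly 4 markers, and just outside it 36, 12 and 12 barcodes that met the other clauses had 3. The clause on other lineages left out 106, 67 and 34 barcodes with 4 or more markers, most often through the endothelial gene Cldn5 (65, 37 and 22).

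The cells' RNA matched the label. Pf4, a chemokine of macrophages and platelets, had a UMI in 98.7% of PF, 98.1% of HS and 100% of QS members. Mrc1 was present in 95.7%, 95.5% and 95.4%, and F13a1, a transglutaminase of tissue macrophages, in 95.7%, 96.2% and 92.7%. Lyve1 was less frequent, in 41.4%, 49.4% and 44.0%, as was Cd163, a haemoglobin scavenger receptor, in 46.6%, 48.1% and 49.5%. These genes chose the cells, so the shares are a description. In endothelial barcodes (2 or more UMIs of Cldn5 and of no other lineage gene), which should lack them, Pf4 had a UMI in 4.28% of PF and 2.93% of HS cells at median depths of 6000 and 6092 UMIs.

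Genes outside the rule were then set beside a microglia gate (1462, 1222 and 1578 barcodes with 3 or more of 5 microglia genes) and a monocyte or dendritic gate (39, 76 and 57 barcodes). Levels are CPM, a gene's count per 1000000 of the UMIs summed over a gate's cells, and are not divided by gene length. All 18 border macrophage markers that the rule did not use were higher in members than in the microglia gate in all 3 libraries, and 17 of 18 were higher than in the monocyte or dendritic gate in all 3. The exception was Tgfbi. The gates were chosen to hold few of the rule's markers, so genes that go with those markers tend to be low in them. Dab2, an adaptor of endocytosis, stood at 1022, 1170 and 1148 CPM in PF, HS and QS members and at 12.8, 17.1 and 10.2 CPM in the microglia gate. Clec10a, a lectin receptor, stood at 222, 266 and 337 CPM against 0.342, 0.204 and 0.0764. The 12 pan-macrophage genes summed to 21994, 19777 and 20404 CPM, close to the 18525 to 19501 CPM of the microglia gate, with the complement gene C1qa at 4542, 4244 and 4319 CPM.

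Markers of other cells were mostly low. The 12 microglia markers, some of which the rule or the gate used, summed to 1620.5, 1229 and 1381 CPM in members and to 12117 to 12762 CPM in the microglia gate. The 8 monocyte markers summed to 26.8, 20.9 and 21.7 CPM in members, with Chil3 at 0 in all 3 libraries. The monocyte or dendritic gate held 2606 to 4929 CPM of them. Ccr2, Ly6c2, Plac8 and S100a4 of this list also chose that gate's cells, so its high sum is partly fixed by the choice. The platelet list summed to 6.30, 6.18 and 2.41 CPM, although Pf4 is also a platelet gene. The 6 endothelial markers summed to 318, 282 and 198 CPM, and a single UMI of Cldn5 was allowed by the rule. The 6 fibroblast markers summed to 50.4, 51.8 and 31.4 CPM. The dendritic list summed to 42.5, 35.5 and 27.8 CPM. The 6 smooth muscle markers summed to 205, 108 and 126 CPM, highest in PF. The 6 pericyte markers summed to 149, 56.4 and 103 CPM, also highest in PF. Oligodendrocyte markers (6) summed to 223, 231 and 235 CPM and B cell markers (6) to 136, 101 and 133 CPM. The 6 astrocyte markers summed to 53.5, 158 and 57.9 CPM, highest in HS, mostly through Slc1a3, Agt and Aldoc, while Aqp4 was at 3.67, 6.18 and 3.62 CPM. The part of these cells' RNA in the differences between libraries was not tested. The microglia gene Fcrls was as high in members (584, 538 and 598 CPM) as in the microglia gate (591, 663 and 632 CPM).

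**Figure D1:**
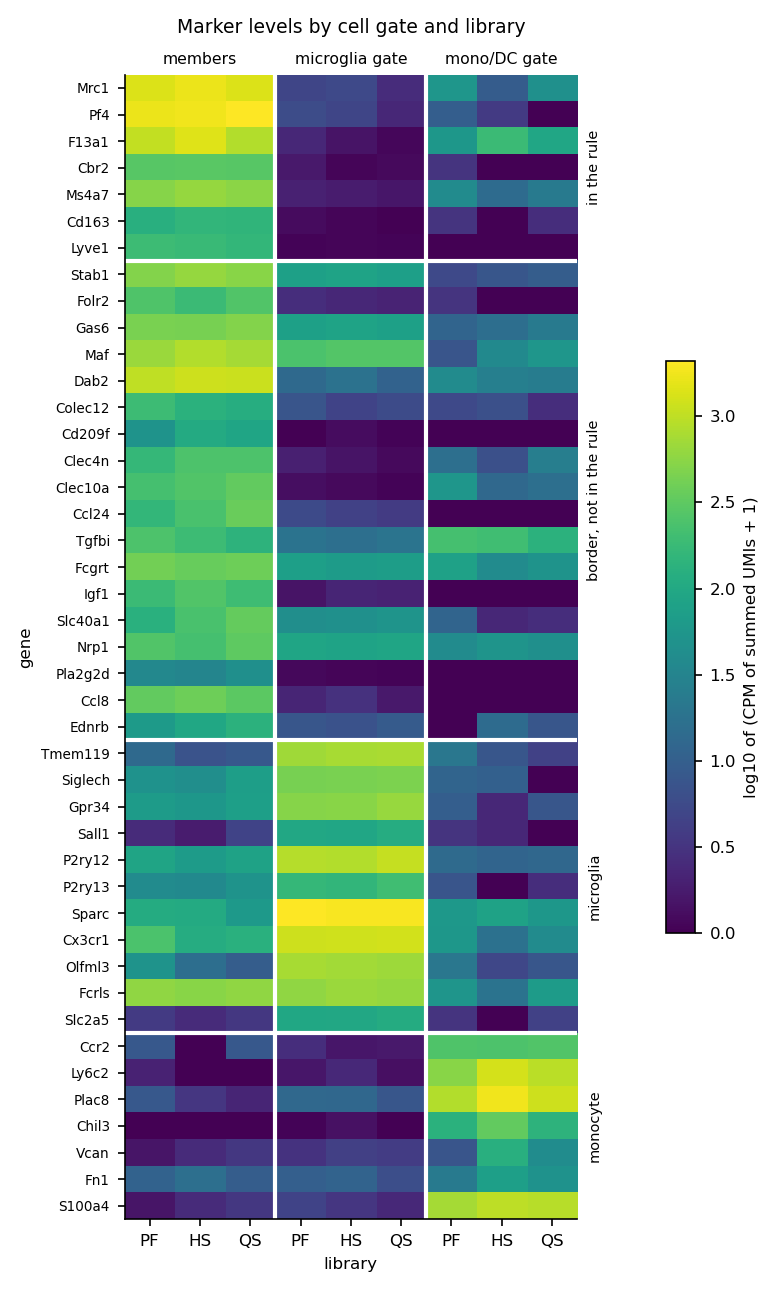
Levels of most marker genes of 4 lists (rows, grouped by list) in members, the microglia gate and the monocyte or dendritic (mono/DC) gate, with PF, HS and QS side by side; colour is log10 of CPM of summed UMIs plus 1. The 7 markers of the rule and the 18 other border macrophage markers are bright in members. The microglia list is bright in the microglia gate apart from Fcrls, which is alike in both, and the monocyte list is bright in the third block. Some of the microglia and monocyte genes shown also chose the cells of those gates.

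Border-associated macrophages were the smallest share of barcodes in QS. They made up 1.83% (1.61% to 2.08%) of passing barcodes in PF, 1.27% (1.08% to 1.48%) in HS and 0.946% (0.778% to 1.14%) in QS. The HS share was 0.691 (0.560 to 0.850) times that of PF, the QS share 0.516 (0.407 to 0.650) times that of PF and 0.747 (0.579 to 0.960) times that of HS. Each interval excluded 1, and the order PF, HS, QS was also found with 3 or 5 markers in place of 4, without Lyve1, without called doublets and after thinning all barcodes to 1500 UMIs.

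Barcodes of another border tissue were also few in QS, but not in HS. Dcn is a proteoglycan of meningeal and perivascular fibroblasts. Barcodes with 2 or more UMIs of Dcn and of no other lineage gene were 2.71%, 2.65% and 0.677% of barcodes. The QS to PF ratio was 0.250 (0.193 to 0.320). There were 0.676 members per fibroblast barcode in PF, 0.479 in HS and 1.40 in QS, so relative to fibroblasts the order was different. Relative to the microglia gate it was 0.159, 0.128 and 0.0691. How much border tissue each dissection and digestion carried cannot be told apart from the group with 1 library each.

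**Figure D2:**
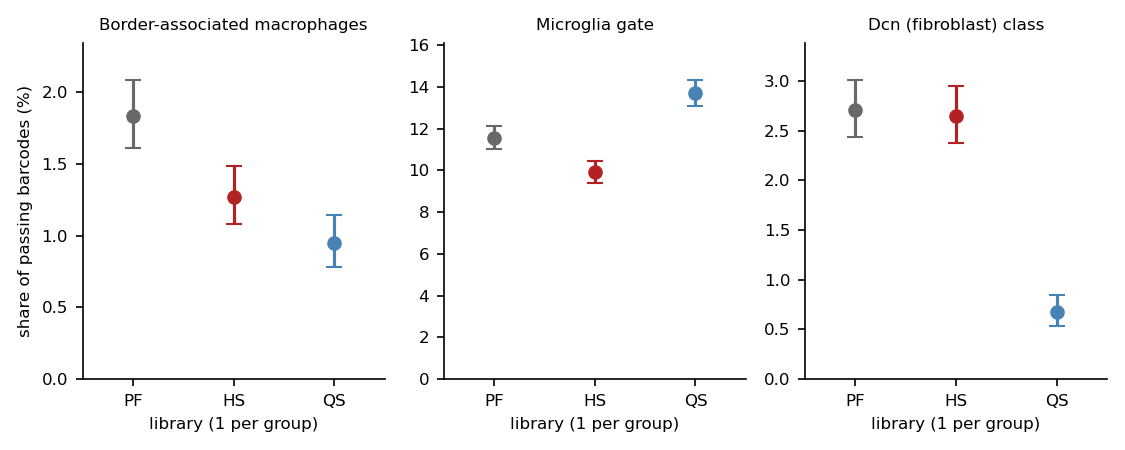
Share of passing barcodes (%, linear axes from 0) in each library for members, the microglia gate and the Dcn class. That class has 2 or more UMIs of Dcn and of no other lineage gene of the rule. Bars are exact 95% binomial intervals. Members are 1.83% in PF, 1.27% in HS and 0.946% in QS, the microglia gate is highest in QS, and the Dcn class is low in QS at 0.677%.

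The first comparison, HS against PF, asks which RNAs of these macrophages differed between the heat-exposed library and the control with matched food intake. HS members had more RNA of the glucocorticoid-induced genes Fkbp5 and Zbtb16, of the lectin and clearance receptors Cd209f, Clec4n and Mertk, and of the iron exporter Slc40a1. They had less RNA of MHC class II genes, of the receptors Axl, Cx3cr1 and Tlr2, of the cytokine Osm and of cell cycle genes. A gene was called on 3 conditions: a CPM ratio of at least 1.5 in either direction, an interval of that ratio without 1, and 30 or more UMIs in the higher library. Of 6758 genes with 30 UMIs, 274 were called higher (4.05%) and 296 lower (4.38%), which is the background for every list (8.43% in either direction, with a median log2 ratio of -0.04).

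Fkbp5, a chaperone that restrains the glucocorticoid receptor and is itself induced by it, lies on chromosome 17 (28399094 to 28517527, minus strand, mm10). Its level in members was 54.0 CPM in PF, 185 CPM in HS and 20.5 CPM in QS, with a UMI in 23.7%, 57.1% and 11% of members. HS stood highest and QS lowest, with no overlap of the intervals. The HS to PF ratio was 3.42 (2.70 to 4.35), the largest among genes that met the naming criteria (among others, at least 50 CPM and no member with over 25% of the UMIs), and the microglia gate gave 2.55 (2.32 to 2.80). In endothelial barcodes Fkbp5 was at 10.7, 27.5 and 4.52 CPM, below the level in members in each library.

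Zbtb16, a zinc finger transcription factor that glucocorticoids induce, was at 43.5, 82.7 and 26.6 CPM, an HS to PF ratio of 1.90 (1.41 to 2.56). Endothelial barcodes gave the same order, at 34.9, 186 and 9.45 CPM. Free RNA was then taken as 5% of the members' UMIs, in the proportions of all barcodes that were not members, and subtracted. The members' ratio was 1.82 after this. Of the 15 glucocorticoid response genes compared, 3 were called higher and 1 lower, with a median log2 ratio of 0.24. The other higher gene was the sulfotransferase Sult1a1 (38.8, 67.2 and 62.8 CPM). Cdkn1a, a cell cycle inhibitor, was the lower one at 539 and 341 CPM, and its call was lost when members with many cell cycle genes were left out (ratio 0.799), without the member with most UMIs (0.699) and when each member counted equally (0.694). Other usual targets stood close together: Tsc22d3 at 304 and 359 CPM, Sgk1 at 80.3 and 84.2 CPM and Per1 at 76.1 and 76.5 CPM. The receptor itself, Nr3c1, was at 116 and 148 CPM.

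Among the 21 scavenger and endocytic receptors compared, 4 were called higher and 2 lower (median log2 ratio 0.10). Cd209f, a C-type lectin, stood at 50.4 CPM in PF, 106 CPM in HS and 89.3 CPM in QS, and it was carried by few members (13.8%, 18.6% and 11.9%). Its neighbour in the family, Cd209g, gave a ratio of 2.49 (1.5 to 4.22) from 13.6 CPM in PF, and reads of such close copies may be divided between them. Mertk, a receptor for dying cells, was at 511, 773 and 534 CPM (ratio 1.51, 1.38 to 1.65), and Clec4n at 162, 245 and 246 CPM (ratio 1.52, 1.29 to 1.78), both near the threshold of 1.5. Axl, of the same receptor family as Mertk, went the other way: 66.6 CPM in PF, 31.7 CPM in HS and 26.6 CPM in QS, a ratio of 0.476 (0.326 to 0.681). Timd4, which binds phosphatidylserine on dying cells, was also lower, at 58.8, 31.7 and 37.4 CPM. Stab1 and Folr2, other markers of these cells, did not pass the call.

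Of 14 iron and haem genes compared, 2 were higher and 1 lower. Slc40a1 (ferroportin, the cell's iron exporter; chromosome 1, 45908068 to 45926523, minus strand) was at 129 CPM in PF, 233 CPM in HS and 348 CPM in QS, with a UMI in 42.7%, 59.0% and 63.3% of members. PF was the low library and the 3 intervals did not overlap. The HS to PF ratio was 1.82 (1.53 to 2.16), while the microglia gate gave 1.06 (0.927 to 1.20) and endothelial barcodes held 260, 242 and 316 CPM. The iron importer of late endosomes Slc11a2 was higher (65.6 and 102 CPM) and its phagosomal relative Slc11a1 lower (75.5 and 47.1 CPM). The ferritin genes Ftl1 and Fth1 and the haem oxygenase Hmox1 were within 1.2 times of PF.

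Signalling genes were mixed. In the list of 22 cytokines and chemokines, 3 were called higher (Il10, Csf1 and Ccl5) and 3 lower (Il1b, Osm and Cxcl16). Osm, a cytokine of the interleukin-6 family, was at 96.0 CPM in PF, 46.4 CPM in HS and 36.2 CPM in QS, a ratio of 0.483 (0.355 to 0.650) against 0.990 (0.872 to 1.12) in the microglia gate. Csf1 and Ccl5 rested on few cells, a single member holding 46.2% and 40.0% of their HS UMIs. The anti-inflammatory cytokine Il10 was at 39.3 and 62.6 CPM (ratio 1.59, 1.15 to 2.21). Tlr2, a receptor for bacterial lipoproteins, was at 161, 95.8 and 74.8 CPM (ratio 0.597, 0.480 to 0.738), the only gene called among 15 of the NF-kB and Toll list. The most abundant chemokines differed little, Ccl2 being at 1465 and 1654 CPM and Ccl7 at 1903 and 2096 CPM.

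Among the macrophage receptors and factors, 2 of 18 were called, both lower, among them the fractalkine receptor Cx3cr1. It was at 240 CPM in PF, 114 CPM in HS and 127 CPM in QS (ratio 0.477, 0.394 to 0.575), and endothelial barcodes held 121, 88.5 and 113 CPM of it. The HS and QS values are thus near the level in cells that should lack it, and only PF stood clearly above. Csf1r, the growth factor receptor on which these cells depend, was at 803, 681 and 712 CPM and did not pass the call.

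Heat shock and chaperone genes stood slightly above PF as a group without passing the call. Of 21 compared, 16 had a ratio above 1, 1 was called higher (Ahsa2, 14.7 and 29.4 CPM) and 0 lower, with a median log2 ratio of 0.19. Hsp90ab1, a constitutive chaperone, was at 1994, 2721 and 2772 CPM (ratio 1.36, 1.30 to 1.43). The inducible Hspa1a was at 7632, 7839.9 and 9995 CPM (ratio 1.03, 1.0 to 1.05), where the microglia gate gave 1.37 (1.35 to 1.40). Hspa1a and Hspa1b are near-identical, so the division of their reads is uncertain. The cold-inducible RNA-binding genes Cirbp (80.3 and 65.7 CPM) and Rbm3 (377 and 294 CPM) were lower without a call.

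Of 25 interferon response genes, 4 were higher (Ifit2, Ifit3, Ifit3b and Rsad2) and 2 lower, and single cells carried much of it. One HS member held 38.1% of the UMIs of Ifit2, which was at 74.0 and 166 CPM, and the ratio of 2.25 (1.81 to 2.80) became 1.61 without the member with most UMIs in each library. The calls of Ifit3 and Ifit3b, near-identical copies whose counts are uncertain, were lost in the same way, at 1.48 and 1.06. Ifi27l2a, found in 86.2% of PF and 69.2% of HS members, was lower at 977 and 602 CPM.

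By the same criteria, the other genes with the highest ratios in HS were Gdpd1, a phospholipase D-like enzyme (20.5 and 65.7 CPM), Man2a1, a Golgi mannosidase that trims N-glycans (75.5 and 169 CPM), Zfp654, Zc3h12c, the nuclear export receptor Xpo7, Rnf157, the clock repressor Per2 (29.4 and 64.9 CPM) and the adhesion molecule Vcam1. Vcam1 was at 246, 472 and 328 CPM in members (ratio 1.92, 1.70 to 2.17), while in endothelial barcodes, where it is also made, it was lower in HS, at 524, 318 and 320 CPM. Hbegf, a growth factor of the EGF family, was at 149, 284 and 308 CPM (ratio 1.90, 1.63 to 2.23), and endothelial barcodes held 285, 312 and 304 CPM. The lowest ratios by those criteria were those of the histone gene H2afx, Ccdc134, Pmepa1, the motor Myo1e, Tcim, Axl, Osm, Samsn1, Taf4b and Tom1l2. Pmepa1, an inhibitor of TGF-beta signalling, was at 220 CPM in PF, 95.8 CPM in HS and 76.0 CPM in QS, a ratio of 0.435 (0.353 to 0.533) against 0.913 (0.881 to 0.946) in the microglia gate. Endothelial barcodes held 246, 198 and 243 CPM of it.

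Of 72 gene calls recomputed with other settings in HS against PF, 26 were lost in at least 1. Among them were those of Birc5, Ccl5, Cd74, Cdk1, Cdkn1a, Cenpf, Clec4n, Clock, Csf1, Ctss, Cxcl16, H2-Eb1, Ifi27l2a, Ifit3, Ifit3b, Itgam, Mertk, Mki67, Pclaf, Slc11a1, Slc11a2, Sult1a1, Top2a and Ube2c.

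**Figure D3:**
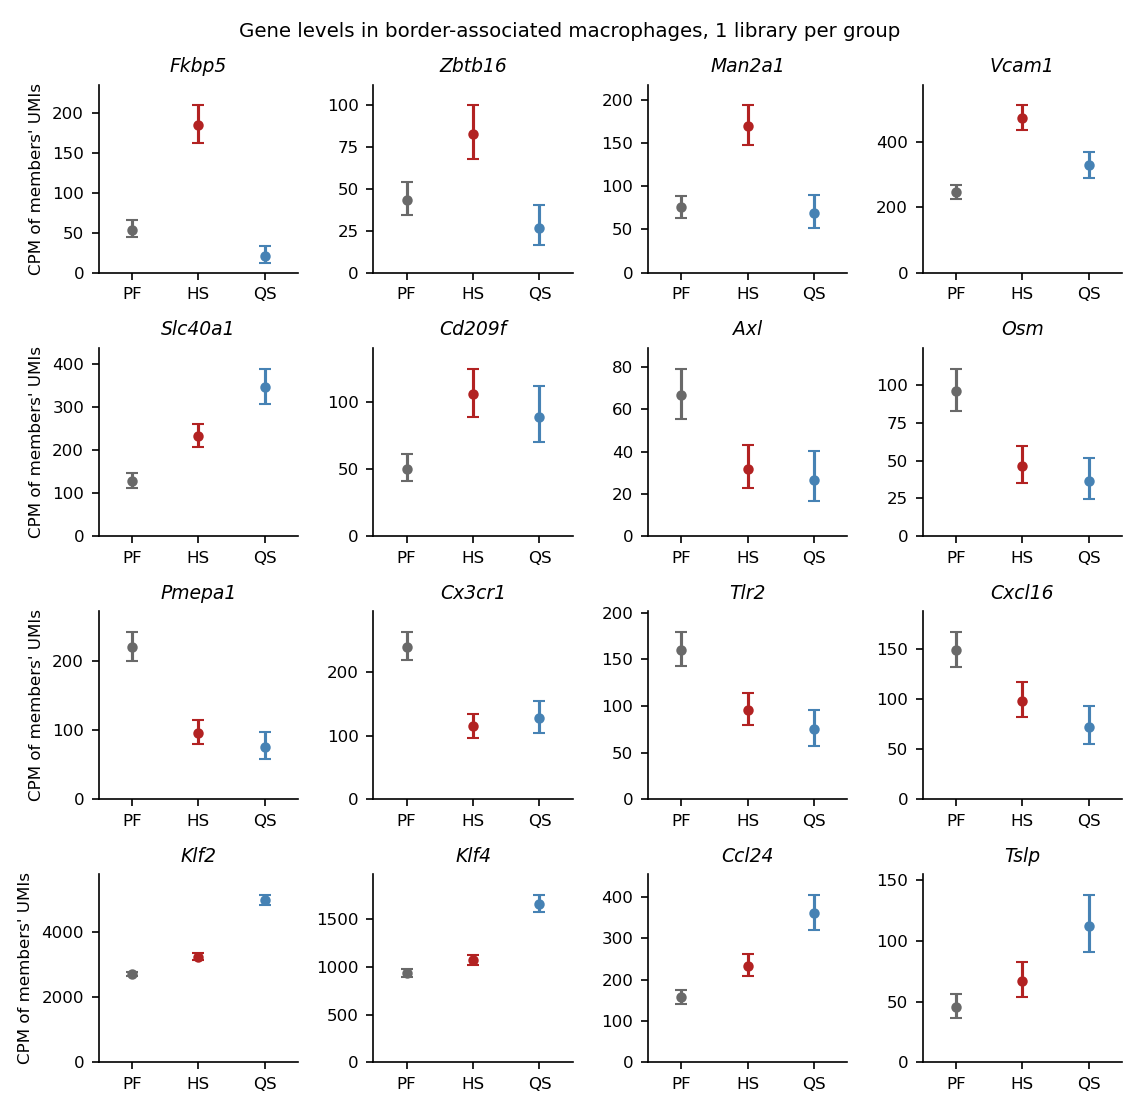
Levels (CPM of the members' summed UMIs, linear axes from 0) of 16 genes in the PF, HS and QS libraries; points are the library values and bars exact 95% Poisson intervals. Fkbp5, Zbtb16 and Man2a1 are highest in HS, Slc40a1, Klf2, Klf4, Ccl24 and Tslp are highest in QS, and Axl, Osm, Pmepa1, Cx3cr1, Tlr2 and Cxcl16 are highest in PF.

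MHC class II genes were the list that stood lowest in HS apart from the cell cycle. The proteins H2-Aa, H2-Ab1 and H2-Eb1 are chains of the peptide-binding molecule, Cd74 is the chain that guards the groove, and H2-DMa and H2-DMb1 load the peptide. Promoters of class II genes are known for the Y box, an inverted CCAAT element close before the start. The 100 bases before the start of 3 of them are shown because these genes were lower together in HS. They are RefSeq sequence of GRCm38.p6, 5′ to 3′ on the gene's strand, with a match to CTGATTGG in capitals, or to its core GATTGG where the longer string was not found:
H2-Aa, chr17:34287824-34287923, minus strand: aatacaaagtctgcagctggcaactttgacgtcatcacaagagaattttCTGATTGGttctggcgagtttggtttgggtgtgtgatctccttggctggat
H2-Eb1, chr17:34305767-34305866, plus strand: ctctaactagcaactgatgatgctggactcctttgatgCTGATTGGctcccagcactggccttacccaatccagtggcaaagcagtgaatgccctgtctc
H2-DMb1, chr17:34153091-34153190, plus strand: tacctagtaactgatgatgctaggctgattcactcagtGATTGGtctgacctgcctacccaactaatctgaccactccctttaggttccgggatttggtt

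The match began 51 bases before the RefSeq start in H2-Aa and 62 bases before it in H2-Eb1 and H2-DMb1. In GENCODE M21 the H2-DMb1 gene starts at 34153072, so its window lies inside the gene in that annotation. Both strands were searched, and the 6 letters are contained in the 8. Of 32851 windows of the same length, 826 (2.51%) held CTGATTGG and 2833 (8.62%) held GATTGG. Of the 14 genes of the list, 10 matched a RefSeq promoter, 3 with the 8 letters and 6 with the 6. H2-DMa, Ctss, Cd80 and Ifi30 had neither in these windows, and H2-Ab1, Cd74, Ciita and Cd86 were not matched. A match describes the letters and is not a measured site.

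In HS, 7 of the 10 class II presentation genes compared were called lower and 0 higher, with a median log2 ratio of -0.69 where all genes had -0.04. H2-Aa was at 497 CPM in PF, 243 CPM in HS and 429 CPM in QS, an HS to PF ratio of 0.488 (0.428 to 0.555). H2-Ab1 was at 298, 154 and 282 CPM (ratio 0.515, 0.436 to 0.606), H2-Eb1 at 347, 227 and 328 CPM (ratio 0.654, 0.568 to 0.752), and Cd74 at 2175, 1345 and 1677 CPM (ratio 0.619, 0.585 to 0.654). HS was the low library for each of them. H2-DMa was at 71.9, 28.6 and 65.2 CPM, the lowest ratio of the list at 0.398 (0.269 to 0.576), and H2-DMb1 at 72.9, 42.5 and 68.8 CPM. Ctss, the protease that cuts the Cd74 chain, was at 1105, 688 and 816 CPM, while in the microglia gate its ratio was 0.926 (0.914 to 0.94). The co-stimulatory ligand Cd86 did not share the pattern, with 2102 CPM in PF and 2471 CPM in HS.

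Summed over H2-Aa, H2-Ab1, H2-Eb1 and Cd74, members held 3318 CPM in PF, 1969 CPM in HS and 2716 CPM in QS, a ratio of 0.593 (0.567 to 0.622) for HS against PF. The microglia gate held 881, 712 and 749 CPM (ratio 0.808), with H2-Aa at 49.2, 18.7 and 16.4 CPM, and the monocyte or dendritic gate held 33998, 9591 and 18126 CPM (ratio 0.282). That last gate did not hold the same cells in each library, since 6 neutrophil markers summed to 37.0, 4806 and 822 CPM in it. In the same gate 6 T or NK cell markers summed to 688.5, 1426 and 1947 CPM, and 8 dendritic markers to 654, 293 and 261 CPM. Endothelial barcodes held 362, 232 and 136 CPM, with both HS and QS below PF. With free RNA subtracted at 5% in the same way, the ratio was 0.595.

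Of 14 MHC class I genes compared between HS and PF, 0 were called higher and 1 lower (Tap2, a peptide transporter, 46.7 and 28.6 CPM, where endothelial barcodes held 183 and 129 CPM). All 14 ratios were below 1, with a median log2 ratio of -0.28. B2m, the light chain of the molecule, was at 1332, 1145 and 1191 CPM and H2-K1 at 1520, 1259 and 1328 CPM, and in the microglia gate these ratios were 0.819 and 0.825. No gene of the complement list was called higher, and 1 of 11 was called lower, the integrin Itgam (66.1 and 41.7 CPM). Of 24 lysosome genes, 0 were higher and 2 lower, among them the cholesterol transporter Npc1 (40.9 and 15.5 CPM).

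The second comparison, QS against PF, asks what distinguished the recovery library from the same control. QS members had more RNA of the Krüppel-like factors Klf2 and Klf4, of the chemokine Ccl24, the cytokine Tslp and of Slc40a1, and less of Fkbp5, Axl, Osm, Pmepa1, Tlr2, Cxcl2 and Ccnd3. Of 6662 genes compared, 226 were called higher (3.39%) and 459 lower (6.89%), or 10.3% in either direction, with a median log2 ratio of -0.11.

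Immediate early genes, which encode factors induced within minutes of a stimulus, were the list with most higher calls. Of 22 compared, 20 had a ratio above 1, 5 were called higher (Egr2, Nr4a2, Klf2, Klf4 and Myc) and 0 lower, with a median log2 ratio of 0.25. Klf2, which limits inflammatory activation of macrophages, was at 2712 CPM in PF, 3246 CPM in HS and 4978 CPM in QS, a QS to PF ratio of 1.84 (1.76 to 1.91), and Klf4 at 933, 1071 and 1659.8 CPM (ratio 1.78, 1.66 to 1.91). QS was the high library for both. The microglia gate gave 0.972 (0.955 to 0.990) for Klf2 and 1.10 (1.07 to 1.14) for Klf4, and endothelial barcodes held 3317, 3119 and 3104 CPM of Klf2. Fos was at 5555, 5268 and 6619 CPM and Jun at 8941, 8362 and 10438 CPM, without a call. Genes of this list are also known to be induced by enzymatic tissue dissociation, whose part was not tested. Dnajb1, a heat shock co-chaperone, was higher at 1204 and 1925 CPM, and the small heat shock protein Hspb1 lower at 250 and 147 CPM, where endothelial barcodes held 3044 to 3382 CPM.

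Chemokines and secreted factors of these cells diverged. Ccl24, a ligand that draws eosinophils and a marker of alternatively activated macrophages, was at 157 CPM in PF, 233 CPM in HS and 361 CPM in QS, a QS to PF ratio of 2.29 (1.95 to 2.70), with at most 4.62 CPM in the microglia gate. Tslp, an epithelial-type alarmin, was at 45.6, 67.2 and 112 CPM, with a UMI in 27.6%, 35.3% and 46.8% of members (ratio 2.46, 1.82 to 3.33) and at most 1.05 CPM in endothelial barcodes. Both stood highest in QS. Cxcl2, which draws neutrophils, was at 3929.8, 3575 and 2079 CPM (ratio 0.529, 0.502 to 0.557), and Cxcl16 at 149, 98.1 and 72.4 CPM (ratio 0.486, 0.362 to 0.644). Osm had a ratio of 0.377 (0.247 to 0.557). Of the 20 cytokines and chemokines compared, 2 were higher (Il1b and Ccl24) and 3 lower, and the call of Il1b, at 44.6 and 83.3 CPM, was lost without the QS member that held 31.9% of its UMIs.

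Receptors and regulators followed. Tlr2 had a ratio of 0.466 (0.349 to 0.614), Tlr7 0.597 (0.425 to 0.824) and the feedback inhibitor Socs3 0.536 (0.444 to 0.644), which are the 3 genes called of 15 in the NF-kB and Toll list. Axl was lower with a ratio of 0.399 (0.241 to 0.630), as were Timd4, Lrp1 and the scavenger lectin Colec12 (190 and 117 CPM), while Cd209f (1.10 when each member counted equally), Clec4n and Clec10a were higher, giving 3 higher and 4 lower among 20 receptors. Clec10a, at 222 and 337 CPM, lay at the threshold with 1.51 (1.30 to 1.77). Hpgd, which breaks down prostaglandins, was at 291, 199 and 455 CPM, a QS to PF ratio of 1.56 (1.37 to 1.78), which was 1.39 when each member counted equally. The prostaglandin E receptor gene Ptger4 was lower, at 86.0 and 53.1 CPM.

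Slc40a1 was the 1 gene called of 14 in the iron list, with a ratio of 2.70 (2.27 to 3.22). Ftl1 was at 6843 and 8574 CPM and Hmox1 at 1110.0 and 1357 CPM, without a call. Of the 11 growth factor and matrix genes, Hbegf was higher (ratio 2.07, 1.74 to 2.46), and Tgfbi (246 and 138 CPM), Spp1 and Sparc were lower. Sparc, at 109 and 60.4 CPM in members, is made by endothelial cells and microglia (1662, 1645 and 1825 CPM in endothelial barcodes), so its value in members cannot be told apart from free RNA.

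Among 15 glucocorticoid response genes, 1 was higher (Sult1a1) and 3 lower. Fkbp5 was below PF as well as below HS, at 0.380 (0.213 to 0.638) times PF, and the microglia gate gave 0.548 (0.483 to 0.620). Klf9 was at 50.9 and 26.6 CPM, below the 243 and 240 CPM of endothelial barcodes. The call of Zbtb16 (ratio 0.610, 0.363 to 0.986) was lost under 6 alternatives, with ratios from 0.628 to 0.817. Of 25 interferon response genes, 4 were higher (Ifit1, Ifit2, Rsad2 and Cxcl10) and 5 lower (Irf7, Oas1a, Ifi27l2a, Xaf1 and Zbp1). A single QS member held 45.5% of the UMIs of Rsad2 and 41.3% of those of Ifit1, with ratios of 2.88 and 1.60 without the member with most UMIs, from 4.08 and 2.16. Of 70 gene calls recomputed with other settings in QS against PF, 25 were lost in at least 1, among them those of Cd209f, Clec10a, Clec4n, Colec12, Dnajb1, Hpgd, Ifi27l2a, Ifi30, Il1b, Irf7, Itgb2, Myc, Nlrc5, Nr4a2, Spp1, Sult1a1, Tlr7, Xaf1 and Zbp1.

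The class II list had 0 genes higher and 1 of 10 lower (Ifi30, a thiol reductase of the antigen pathway, 156 and 104 CPM), with a median log2 ratio of -0.18. The summed ratio of the 4 genes was 0.819 (0.780 to 0.859). That sum leans on 1 QS member with 24.4% of the library's class II UMIs, and without the member with most UMIs of a gene in each library the ratio was 0.686. Class I genes gave 0 higher and 2 lower of 14, Nlrc5 and H2-Q7, the latter with close copies that make its count uncertain. Lysosome genes gave 0 higher and 0 lower of 24, and of 11 complement genes 1 was lower, the integrin Itgb2.

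By the naming criteria, the remaining genes with the highest QS to PF ratios were Ifih1, a sensor of viral double-stranded RNA (108, 206 and 433 CPM), Simc1 (78.2, 85.8 and 241 CPM), Hist4h4 (a histone gene with close copies and an uncertain count), Ifit2, Sap18, Rgs3 and Ripk2. Ifih1 had a ratio of 4.01 (3.37 to 4.78), and one QS member held 22.3% of its UMIs. Those with the lowest were Ptprm, P2ry10b, Pmepa1, Slk, Osm, Fkbp5, Ccnd3, Axl, Arfgap2 and Samsn1. Ccnd3, a D-type cyclin, was at 137 CPM in PF, 181 CPM in HS and 54.3 CPM in QS, a ratio of 0.395 (0.281 to 0.544), and the microglia gate gave 0.608 (0.574 to 0.644). Ptprm, a receptor phosphatase, was at 210, 222 and 60.4 CPM in members and at 757 to 766 CPM in endothelial barcodes of all 3 libraries.

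The third comparison, QS against HS, sets recovery against exposure directly. Of 5472 genes, 182 were called higher in QS (3.33%) and 391 lower (7.15%), or 10.5% in either direction. Among genes that met the naming criteria the lowest ratio was that of Fkbp5, at 0.111 (0.0637 to 0.182) times its HS level, followed by Ptprm, P2ry10b, Ccnd3, the histone methyltransferase gene Setdb2, Zbtb16 (0.321, 0.193 to 0.512), Gabpb1, Ssbp4, Tfec and Man2a1 (0.407, 0.298 to 0.546). The highest were Hist4h4, Simc1, Rbfa, Cnnm2, Ier5l, Myo1e, Hpgd (2.29, 1.95 to 2.70), the citrate lyase Acly, Rgl2 and Ifih1. Fkbp5, Zbtb16 and Man2a1 shared one order of levels, highest in HS.

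The immediate early list again had most higher calls by number, 5 of 22 with 0 lower and 20 above 1 (median log2 ratio 0.32, where all genes had -0.08). Klf2 had a ratio of 1.53 (1.47 to 1.60) and Klf4 1.55 (1.44 to 1.67), and when each member counted equally they had 1.38 and 1.49, below the threshold. Of 47 gene calls recomputed with other settings in QS against HS, 19 were lost in at least 1, among them those of Ccl24, Cd80, H2-Aa, H2-Ab1, H2-DMb1, Hspb1, Ifit1, Klf2, Klf4, Rsad2 and Sparc. Scavenger receptors and lysosome genes gave 0 calls of 20 and 0 of 22. In the class II list 4 of 10 genes were higher, a larger share than in the immediate early list, and 1 lower (Cd80). The median log2 ratio was 0.42, with H2-Aa at 1.77 (1.51 to 2.06) and H2-DMa at 2.28 (1.47 to 3.56). The summed ratio of 4 genes was 1.38 (1.30 to 1.46). Without the member with most UMIs of a gene in each library the sum gave 1.20 and 1 gene stayed called. Among members with 5 or more markers the sum gave 1.03, so this difference depended on which members were counted.

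Class II RNA was spread very unevenly over the macrophages themselves. The 4 genes together had no UMI in 25% of PF, 37.2% of HS and 44.0% of QS members, and the median member held 2.94, 1.41 and 1.51 class II UMIs per 10000. The tenth of members with most (24, 16 and 11 cells) held 78.1%, 80.1% and 82.7% of these UMIs. PF thus differed from HS both in the share of members with any such UMI and in the middle of the range. A UMI of Cd74 was found in 72.0%, 59.0% and 56.0% of members, or in 48.4%, 34.9% and 35.2% after thinning each to 1500 UMIs, with 7, 4 and 4 shallower members left out. In endothelial barcodes 35.6%, 21.2% and 15.1% had a class II UMI, and the 4 genes summed to 362, 232 and 136 CPM, also lower in HS than in PF. The part of free RNA in the members' share with any UMI and in their median was not tested.

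**Figure D4:**
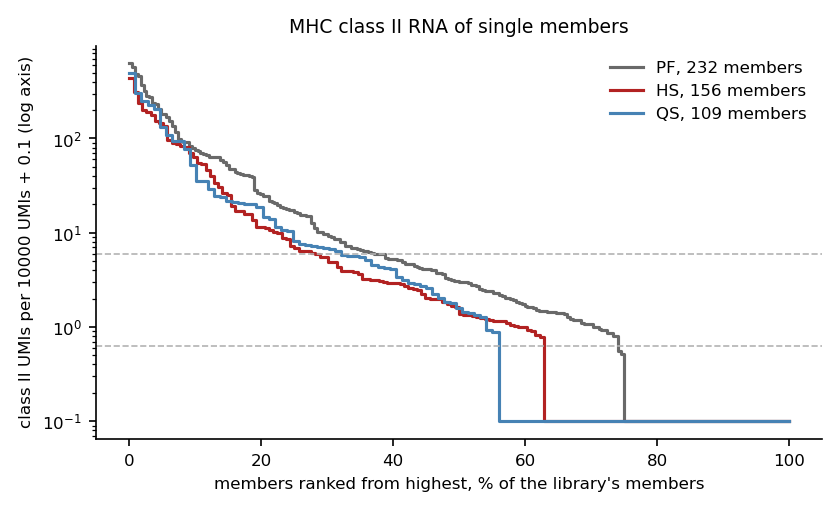
Class II UMIs (H2-Aa, H2-Ab1, H2-Eb1 and Cd74) per 10000 UMIs of each member plus 0.1, on a log axis, with the members of each library ranked from the highest along the x axis (% of members); dashed lines are the cuts between the low, middle and high groups at 0.531 and 5.86 per 10000. The highest members reach 627, 440 and 492 per 10000 in PF, HS and QS, PF lies above HS and QS through the middle, and the drop to the floor marks the 25%, 37.2% and 44.0% of members without a UMI.

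All members were ranked and cut into a low, a middle and a high group at 0.531 and 5.86 class II UMIs per 10000, which is a division of a range and not of types: 225 members lay within 1 per 10000 of the lower cut, most of them with no class II UMI, and 34 of the upper cut. The high group held 37.5% (31.3% to 44.1%) of PF, 28.2% (21.3% to 36.0%) of HS and 32.1% (23.5% to 41.7%) of QS members. These intervals overlapped. The low group held 25.9%, 37.2% and 44.0%, which in HS and QS were the members without a UMI and in PF nearly so. Median depth was 6685 UMIs in the low, 9152 in the middle and 7821 in the high group.

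Other genes differed along this range in every library, which describes the members since cells of 1 library are not replicates. Lyve1, a marker of the rule, was at 222 CPM in the low and 81.4 CPM in the high group, and Slc40a1 at 297 and 109 CPM, with the low group above the high group in all 3 libraries. The rule's markers Pf4 (1930 and 1576 CPM) and Mrc1 (1572 and 1216 CPM) were lower in the high group by less. Stab1, Colec12 and the endothelin receptor Ednrb (111 and 58.5 CPM) went with Lyve1. At the other end, Cxcl16 was at 65.7 CPM in the low and 192 CPM in the high group, Axl at 23.1 and 68.8 CPM, Ccl8 at 191 and 510 CPM and Il1b at 14.2 and 107 CPM. Tcof1, a nucleolar factor chosen after its values were seen, was at 48.0 and 228 CPM. The class II partner genes H2-DMa (27.5 and 124 CPM) and H2-DMb1 (23.1 and 126 CPM) were also higher in the high group than in the low one. These levels are sums over members. In both groups the median member held no UMI of Lyve1, Axl, Ccl8, Il1b, H2-DMa or H2-DMb1. For Cxcl16 the median was 0 in the low and 1.02 per 10000 UMIs in the high group, and for Slc40a1 1.11 and 0. Cd86 was slightly lower in the high group (2336 and 2158 CPM, ratio 0.924, 0.876 to 0.974), while Irf8 was alike (181 and 176 CPM). Of dendritic cell genes, Zbtb46 was at 14.2 and 18.5 CPM and Fscn1 at 22.2 and 17.0 CPM, both from few UMIs.

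Part of the cell cycle RNA came from few members. Of 15 cell cycle genes, 9 were compared between HS and PF and 7 were called lower (median log2 ratio -1.65), and 5 of 9 were lower in QS (median -1.07). Mki67, which marks dividing cells, was at 27.3 CPM in PF, 5.41 CPM in HS and 0 CPM in QS, with 52, 7 and 0 UMIs, and the limit of 3 UMIs that a count of 0 allows corresponds to a QS level of at most 3.62 CPM. Members with a UMI of 5 or more of the 15 genes were 14 of 232 in PF (6.03%, 3.34% to 9.92%), 7 of 156 in HS (4.49%, 1.82% to 9.03%) and 2 of 109 in QS (1.83%, 0.223% to 6.47%). The intervals overlapped, and those few cells held 89.2%, 68.1% and 51.0% of the UMIs of Mki67, Top2a, Cdk1, Birc5, Pclaf, Ube2c and Cenpf. Of the UMIs of all 15 genes they held 44.4%, 18.7% and 22.5%, so most of the list's UMIs lay in other members. Without these cells none of the 7 calls in HS against PF remained. The ratios were then 0.706 for Mki67, 0.847 for Cdk1, 0.941 for Top2a and 1.21 for Cenpf. In QS against PF 4 of the 5 calls were lost, all but that of Stmn1. The cells left out were chosen by genes of the same list, after seeing the data, so the loss of calls is partly fixed by that choice. In the microglia gate 2.39%, 2.37% and 0.760% of barcodes had 5 or more. Birc5, needed for chromosome separation, was at 28.9, 8.50 and 6.04 CPM.

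**Figure D5:**
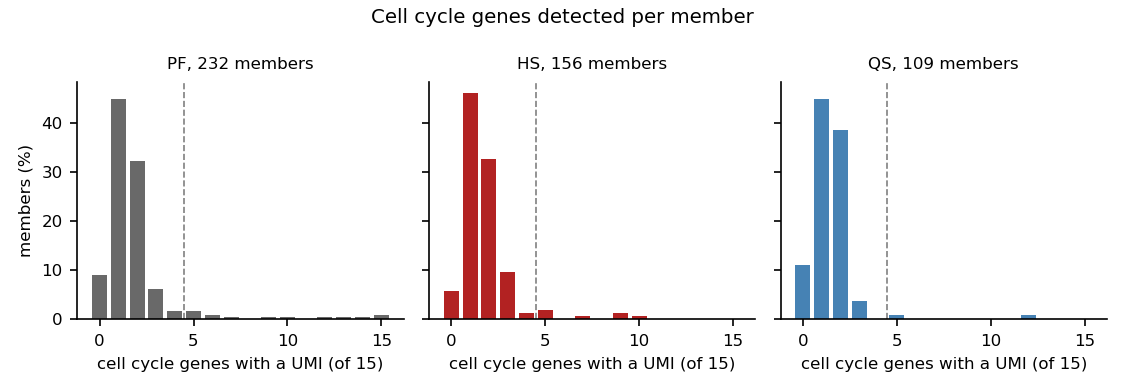
Percentage of members (bars, linear axis from 0) by the number of 15 cell cycle genes with a UMI, in PF, HS and QS; the dashed line separates members with 5 or more. Most members hold 1 or 2, and the tail to the right of the line is 6.03% in PF, 4.49% in HS and 1.83% in QS.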

How the data were processed

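Hypothalamic cells were profiled as 3 single-cell libraries, 1 per group. The values deposited by the authors are UMI counts per gene and barcode, in matrices of 32285 genes. Per the submitters' processing notes they were made with Cell Ranger 5.0.0 and Seurat 3.1.2 on mm10, while the file headers name Cell Ranger 7.0.1. The sources used here do not say whether intronic reads were counted. Libraries held 12836, 12510 and 11720 barcodes with 93295920 to 103891747 UMIs.

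The members' raw counts were added up within each library and divided by their total to give CPM (per 1000000 UMIs). Ratios carry exact conditional binomial intervals, shares exact Clopper-Pearson intervals and levels exact Poisson intervals, all at 95%. No count model was fitted, since each group has 1 library. The call rule was checked on simulated counts that held counting error only, without spread between members. The check therefore does not cover calls carried by single members. Doublets were called with Scrublet in Scanpy 1.11.5 (expected rate 0.8% per 1000 barcodes), which marked 6.39%, 5.40% and 6.23% of barcodes. Other software was Python 3.11.15, NumPy 2.4.6, SciPy 1.17.1, pandas 2.3.3, AnnData 0.12.19 and matplotlib 3.10.9.

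The members, lists and alternatives were chosen with earlier results of these data known. The monocyte or dendritic gate needed 3 or more of 9 genes. The genes named by rank are, for each comparison, the 10 highest and 10 lowest ratios. Such a gene had 50 CPM and 30 UMIs or more in the higher library, 1 UMI in the other, an interval that excludes 1, no cell with over 25% of the gene's UMIs in the higher library, and a level of at least 20% of that in the highest other class. Mitochondrial, ribosomal, haemoglobin, Gm, Rik and rule genes and ambiguous symbols were left out. List members past the call could be named too. Results that need certain withheld genes are not reported here. Cdkn1a, Cd86, genes at the middle of their lists and marker genes were named to describe those lists. Coordinates are from GENCODE M21, promoters from RefSeq (GRCm38.p6).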

Additional observations from a re-analysis of the deposited data

How the results depend on the processing

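No paired analysis was possible because each group is 1 library. Shares of members kept their order in every setting tried: 2.12% in PF with 3 or more markers; 1.44%, 1.04% and 0.747% in PF, HS and QS with 5 or more; 1.38%, 0.864% and 0.554% with barcodes thinned to 1500 UMIs, where the QS to PF ratio was 0.401; and 2.61%, 1.75% and 1.22% without the clause on other lineages, chosen after seeing the data. The summed class II ratio for HS against PF was 0.628 with 5 or more markers, 0.646 without members with 5 or more cell cycle genes (chosen after seeing the data) and 0.636 as a mean of the members' CPM. For QS against PF it was 0.650, 0.871 and 0.707 in those settings, and 0.686 without the member with most UMIs of a gene. For QS against HS it was 1.03 with 5 or more markers, 1.20 without that member and 1.11 as a mean, and the class II genes called higher were 1 in each of these settings. With no minimum of 30 UMIs, 704 genes were called higher in HS against PF, 426 in QS against PF and 349 in QS against HS, with 706 lower in the last, since low counts then enter. As a mean of the members' CPM, 600, 952 and 696 genes were called lower in the 3 comparisons, and without the member with most UMIs 138 were called higher in QS against PF. Ratios of single genes turned direction in 5 of 1701 values: Cenpf to 1.21 (HS against PF) and Pclaf to 1.08 (QS against PF) without cell cycle members, Pla2g4a to 1.10 and Ube2c to 1.15 (HS against PF) as a mean, and Rgs1 to 0.921 (QS against HS) with 5 or more markers. In 127 of the 1701 values a call was lost. Except for low counts, the cause was not tested.

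Precision is set by 497 members, and by QS with 109. A gene with 30 UMIs in 1 library is measured coarsely. Single members carried much of the interferon and class II RNA, and few members carried part of the cell cycle RNA. Free RNA raises levels of genes made by endothelial cells and microglia. Differences between mice, dissections and captures cannot be told apart from the groups, and the sources used here do not give the hour of collection.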

Other observations

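Clock genes of the macrophages were not all alike between the libraries. Per2 was at 29.4 CPM in PF, 64.9 CPM in HS and 59.1 CPM in QS, with an HS to PF ratio of 2.21 (1.56 to 3.16), and Bhlhe41, a repressor of the same loop, at 32.5, 13.1 and 33.8 CPM. Clock was at 41.4, 63.4 and 35.0 CPM, and its HS call was lost under 3 alternatives. Of 8 clock genes compared between HS and PF, 2 were higher and 1 lower. The sources used here do not give the hour of collection.

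Apoe, the main lipid carrier of these cells, was at 20712, 21051 and 25679 CPM and found in every member. Spp1, a matrix protein, was at 32.5, 10.8 and 7.24 CPM, and 1 PF member held 33.9% of its UMIs. Calcrl, the receptor for CGRP and adrenomedullin and a gene chosen after its values were seen, was at 80.8, 83.5 and 146 CPM in members, and it was lower in the high than in the low class II group of members (62.9 and 150 CPM), while endothelial barcodes held 146, 152 and 138 CPM.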
